A study of Mus musculus with 12 samples.

Results

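Potassium channel pore genes encode the subunits that line the potassium-selective pore of a channel. The set described here holds every gene whose symbol is Kcn followed by the letter a, b, c, d, h, k, n, q, or t and a number, which gave 50 of the 55418 genes in the count table. They fall into 9 letter families, with 8 *Kcna*, 2 *Kcnb*, 4 *Kcnc*, 3 *Kcnd*, 8 *Kcnh*, 14 *Kcnk*, 4 *Kcnn*, 5 *Kcnq*, and 2 *Kcnt* genes, and the inward rectifiers (*Kcnj*) and the auxiliary subunits are outside it. RNA was measured in the brainstem of outbred CFW mice at P15, in 12 mice with a library of its own for each, 3 for each combination of treatment and sex. All pups were injected 2 times daily from P1 to P14, with 15 mg/kg morphine or with saline as the vehicle, and tissue was collected 16 h after the last injection, when the morphine mice were in spontaneous withdrawal. Pups of a litter were divided between the treatments, but the labels do not give the dam of a mouse, so litter could not be entered in the fits. The labels give brainstem as the tissue, whereas the extraction text names spinal cords. The 8 markers of pons and medulla, among them the serotonin enzyme *Tph2*, summed to between 67.5 and 104.7 CPM (counts scaled to the TMM-adjusted library size) in the 12 libraries, and 6 Hox genes of the thoracic to sacral cord summed to at most 0.123 CPM.

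Voltage-gated pore subunits open when a neuron depolarizes, and their families differ in how fast they open and where on the cell they sit. *Kcna* channels act on axons, *Kcnc* channels let neurons fire fast trains, *Kcnd* channels give the transient A-type current, and *Kcnq* channels give the slow M current that holds back repeated firing. The *Kcnk* (K2P) channels are the leak channels that set the resting potential, the *Kcnn* (SK) channels are opened by calcium, and the *Kcnt* channels are opened by sodium. Several of these currents set the excitability of respiratory and monoamine neurons of the pons and medulla.

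The feature that unites these genes is the selectivity filter, a short loop that strips water from potassium ions. A search of the longest coding sequence of each gene in GENCODE M21 (GRCm38) for the codons of a filter signature (threonine or serine, then valine, isoleucine, or leucine, then glycine, then tyrosine, phenylalanine, or leucine, then glycine) found at least 1 in all 50 genes. All 36 genes outside the *Kcnk* family held 1, and 12 of the 14 *Kcnk* genes held 2, which is the mark of a K2P subunit. *Kcnk1* and *Kcnk7* held 1, and no other stretch of either gene matched the search. A filter of another form would have been missed, so the search does not show that these genes have a single filter. The stretches below show the filter of the 4 genes that passed a test in any comparison, followed by 2 pairs of close relatives that differ in base composition, on which the last results turn. Each runs 5′ to 3′ along the coding strand for 75 bases, with the 15 bases of the filter codons in capitals.
Kcna5: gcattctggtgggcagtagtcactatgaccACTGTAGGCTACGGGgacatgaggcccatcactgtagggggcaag
Kcnk12: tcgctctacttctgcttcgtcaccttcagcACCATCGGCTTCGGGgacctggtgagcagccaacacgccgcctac
Kcnk1: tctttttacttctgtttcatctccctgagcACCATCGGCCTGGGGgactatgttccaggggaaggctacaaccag
Kcnh3: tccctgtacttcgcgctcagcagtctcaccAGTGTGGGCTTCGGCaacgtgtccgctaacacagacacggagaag
Kcnh2: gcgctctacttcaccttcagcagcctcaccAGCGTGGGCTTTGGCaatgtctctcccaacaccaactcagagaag
Kcnh7: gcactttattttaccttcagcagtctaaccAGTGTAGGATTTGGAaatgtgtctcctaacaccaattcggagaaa
Kcnt1: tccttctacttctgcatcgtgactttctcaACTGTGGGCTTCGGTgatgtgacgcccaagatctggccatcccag
Kcnt2: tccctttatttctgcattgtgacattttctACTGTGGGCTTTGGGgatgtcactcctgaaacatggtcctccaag

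On GRCm38 the *Kcna5* stretch lay at chr6:126533715-126533789 on the minus strand, in the only exon of its transcript. The *Kcnk12* stretch, its second filter, lay at chr17:87746423-87746497 on the minus strand in exon 2 of 2. The *Kcnk1* stretch, the only match in that gene, lay at chr8:126025299-126025373 on the plus strand in exon 2 of 3, and the *Kcnh3* stretch at chr15:99232899-99232973 on the plus strand in exon 8 of 15. For the relatives, *Kcnh2* was read at chr5:24325525-24325599 (minus strand, exon 7 of 15) and *Kcnh7* at chr2:62777313-62777387 (minus strand, exon 8 of 16). *Kcnt1* was read at chr2:25894337-25894411 (plus strand, exon 11 of 32) and *Kcnt2* at chr1:140425248-140425322 (plus strand, exon 9 of 28). All 25 codons of the *Kcnh2* and *Kcnh7* stretches encode the same amino acids, while 15 of the 75 bases differ, and all 15 stand at the last base of a codon. The *Kcnt1* and *Kcnt2* stretches share 20 of 25 amino acids and 56 of 75 bases. Over the whole coding sequence, G or C filled 72.8% of last codon bases in *Kcnh2* and 47.0% in *Kcnh7*, and 76.0% in *Kcnt1* and 43.8% in *Kcnt2*.

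Between 27850565 and 48097947 counts per library fell on genes. Among the labelled males, saline male 3 and the library labelled morphine male 6 were taken as the libraries that stood apart, although saline males 1 and 2 also departed from the rest. The library labelled morphine male 6 held 379.9 CPM of *Xist*, against 0.398 to 2.71 CPM in the other males and 547 to 970.5 CPM in the females, and its 4 Y-linked genes lay between 9.04 and 19.0 CPM, below every other male. In saline male 3 genes rich in G and C were low over the whole table, and in saline males 1 and 2 they were high. Over 18608 genes, Pearson's r of the log2 ratio to the mean of the 12 libraries with GC content was 0.59, 0.69, and -0.69 in saline males 1, 2, and 3. Fits without saline male 3 thus set saline males 1 and 2, both high in such genes, against the morphine males. Of the female libraries, saline female 6 leaned toward genes poor in G and C. The calls of pore genes are given also without saline male 3 or the library labelled morphine male 6. Fewer cells of a type and less RNA per cell cannot be told apart in RNA of a whole brainstem.

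Across the 12 libraries the pore genes summed to between 381 and 415 CPM per kb of exon, the scale used here to compare levels between genes. Of the 50 genes, 43 passed the filter on low counts in each of the 4 fits, with 11 at 10 CPM per kb or more, 24 between 1 and 10, and 8 below 1. The other 7, *Kcna7*, *Kcna10*, *Kcnh4*, *Kcnk7*, *Kcnk16*, *Kcnk18*, and *Kcnn4*, had between 0 and 17 counts in a library and were not tested. The 5 highest genes made up 49.6% of the summed level. By family, *Kcna* held 29.5% of it, *Kcnk* 24.0%, *Kcnc* 19.0%, *Kcnq* 8.00%, *Kcnd* 7.73%, *Kcnh* 4.69%, *Kcnn* 2.88%, *Kcnt* 2.57%, and *Kcnb* 1.60%. The plot of levels shows the genes of each family with their spread.

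**Figure D1:**
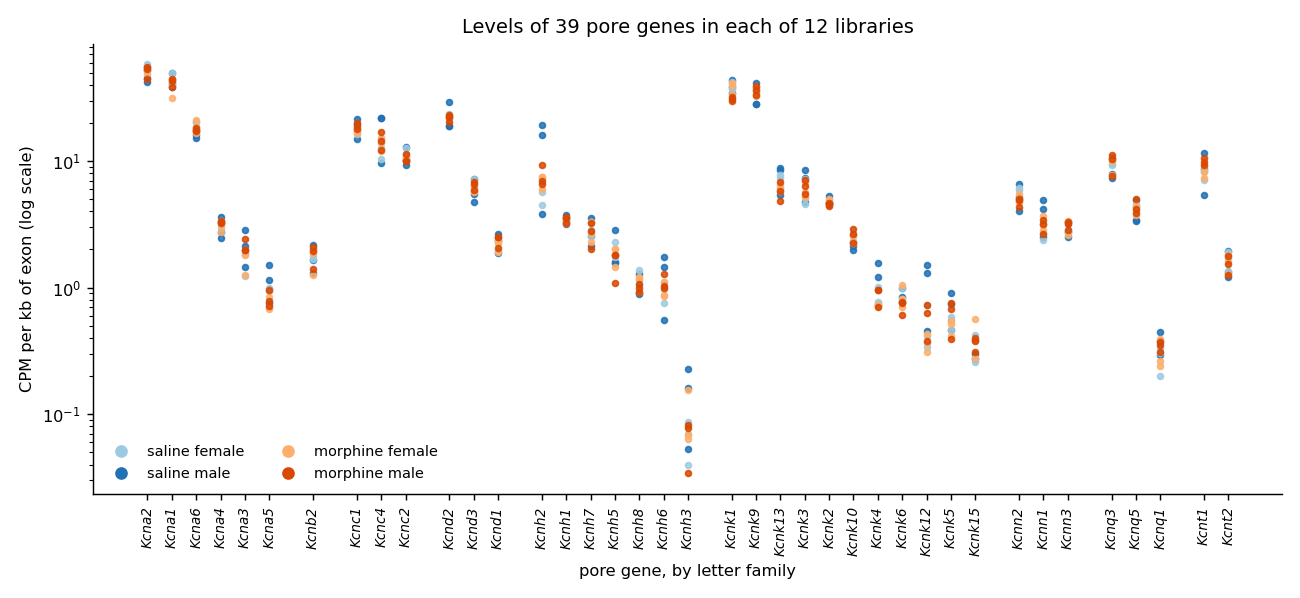
Level of 39 of the 43 tested pore genes in CPM per kb of exon (log axis), 1 point per library, grouped by letter family and colored by treatment and sex. *Kcna2* was the highest gene at a mean of 51.0 CPM per kb and *Kcnh3* the lowest at 0.09, and in *Kcnh2*, which ran from 3.79 to 19.3, the saline males lie at both ends.

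The axonal Kv genes were led by *Kcna2*, at a mean of 51.0 CPM per kb with a range of 42.3 to 58.0 over the libraries. *Kcna1*, mutated in episodic ataxia, followed at 42.2 CPM per kb (31.7 to 49.8), and the ranges of both genes overlapped. *Kcna6* stood at 18.1 CPM per kb, although 39.6% of its exon bases lie opposite an antisense gene and the strand setting of the counting is not given in the sources used here. *Kcna4* was lower, at 3.11 CPM per kb, and *Kcna3* and *Kcna5* were at 1.90 and 0.92. Among the fast *Kcnc* genes, known from the auditory brainstem, *Kcnc1* stood at 18.04 CPM per kb, *Kcnc4* at 14.7, and *Kcnc2* at 10.9.

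The A-type pores were mainly *Kcnd2*, at 22.2 CPM per kb, with *Kcnd3* at 6.15 and *Kcnd1* at 2.25. The slow delayed rectifier *Kcnb2* stood at 1.76 CPM per kb. The M current subunit *Kcnq3* stood at 9.33 CPM per kb, above *Kcnq5* at 4.20 and the cardiac and epithelial subunit *Kcnq1* at 0.32. In the *Kcnh* family the ERG subunit *Kcnh2* led at 8.38 CPM per kb but ranged from 3.79 to 19.3, whereas *Kcnh1*, the EAG subunit next in order at 3.41, ranged only from 3.17 to 3.74.

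The leak channels were led by *Kcnk1* (TWIK) at 36.7 CPM per kb and *Kcnk9* (TASK) at 35.0, whose ranges over the libraries overlapped (up to 43.4 and 41.4). *Kcnk13*, a THIK subunit that also acts in microglia, stood at 6.63 CPM per kb, the acid-sensitive TASK subunit *Kcnk3* at 6.16, and the stretch-sensitive TREK subunits *Kcnk2* and *Kcnk10* at 4.72 and 2.41. *Kcnk4*, the TRAAK subunit, stood at 0.90, though 13.2% of its exon bases are shared with *Catsperz* on the same strand. *Kcnk12*, the other THIK subunit, stood at 0.63 CPM per kb with 20 to 136 counts per library. The SK subunits *Kcnn2*, *Kcnn1*, and *Kcnn3* stood at 5.18, 3.23, and 3.01 CPM per kb, and the sodium-activated subunits *Kcnt1* and *Kcnt2* at 8.63 and 1.56.

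Whether repeated morphine changed these levels was asked first in both sexes together, in a fit of the 12 mice with sex as a covariate. Of the 43 tested pore genes, 2 passed the thresholds for DE genes used by the study (p below 0.05 before adjustment, together with a log2 fold change beyond 0.26 in either direction, here from edgeR's quasi-likelihood test), and both were lower in morphine mice. Over all 18608 genes tested, 1.19% passed. The median log2 fold change, morphine over saline, was -0.02 for the pore genes and -0.02 for all genes, and single pore genes lay between -0.68 and 0.27. No pore gene had an adjusted p under 0.05. With the Wald test of DESeq2 3 passed the same thresholds, where 224 of 18608 genes did, and with exactTest of edgeR 1 passed, where 244 of 18608 did. Without saline male 3, 4 pore genes passed, all lower, where 2.42% of all genes did, and without both libraries that stood apart 4 passed, where 2.02% did. No pore gene separated the 6 saline from the 6 morphine libraries, as 0.0430% of all genes did.

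*Kcna5*, a delayed rectifier pore known best from vascular muscle and the atrium, was the first of the 2. Its level was 2.86, 2.70, and 2.80 CPM in the saline females and 2.40, 2.02, and 1.94 CPM in the morphine females, in order of mouse number. In the saline males it was 4.35, 3.304, and 2.17 CPM, and in the morphine males 2.26, 2.07, and 2.75 CPM. The female groups did not overlap, and in males 2 of the saline libraries lay above all morphine libraries while saline male 3 lay among them. The log2 fold change was -0.42 (SE 0.16), with an unadjusted p of 0.0231 and an adjusted p of 1.00 in edgeR's quasi-likelihood test, and the exact permutation test over the 12 libraries, which asked for a difference in either direction, gave p = 0.0216. *Kcna5* passed under all 11 other settings tried, at -0.57 to -0.37, and was at -0.53 without saline male 3, -0.48 without the library labelled morphine male 6, and -0.57 without both. It no longer passed without saline male 1 (-0.30) or without morphine male 5 (-0.38). Its counts were few, 53 to 151 per library. Of the 4 smooth muscle and pericyte markers tested, 0 were called in this fit and 0 in males alone. In females alone *Acta2* and *Myh11*, 2 of the 4, were called lower in morphine mice. The sum of the 5 listed genes overlapped, at 330 to 368 CPM in saline and 324 to 344 CPM in morphine females. The part of these markers in the *Kcna5* result was not tested.

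*Kcnk12* was the other. It was at 2.56, 2.98, and 0.89 CPM in the saline males, at 0.82, 0.67, and 1.44 CPM in the saline females, at 0.61, 0.72, and 0.84 CPM in the morphine females, and at 0.74, 1.44, and 1.24 CPM in the morphine males. Thus 2 saline males were high, and the other 10 libraries shared the range of 0.61 to 1.44 CPM. The log2 fold change of -0.68 (SE 0.31) had an unadjusted p of 0.0457 in edgeR's quasi-likelihood test, and the exact permutation test over the 12 libraries gave p = 0.195. Leaving out 1 mouse at a time gave -0.86 without saline male 3 to -0.51 without saline male 2, and *Kcnk12* passed in 4 of these 12 fits, those without saline male 3, saline female 4, saline female 5, or morphine female 3. It lost its call under 6 of 11 other settings, among them exactTest and offsets for GC content (-0.46), and was at -0.84, and called, without both libraries that stood apart.

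Its close relative *Kcnk13* was next, with -0.28 (SE 0.13) and an unadjusted p of 0.0506 in edgeR's test. Saline libraries lay at 16.6 to 27.3 CPM with a median of 23.4, and morphine libraries at 14.9 to 21.2 CPM with a median of 18.6. Only saline male 3 and saline female 6, of the saline libraries, lay within the morphine range. The 8 microglial markers summed to between 212 and 299.6 CPM in saline and between 223 and 267 CPM in morphine libraries, and none of them passed the thresholds in any of the 4 main fits. In males without saline male 3, 3 of the 8 were called lower, as was *Kcnk13*, where 28.6% of all genes were called. *Kcnk13* passed in 4 of the 12 fits without 1 mouse and in 6 of 11 other settings. *Kcnk1* (-0.17, SE 0.09) and *Kcnk4* (-0.32, SE 0.18) followed, neither of which passed.

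The more abundant genes of the letter families gave log2 fold changes near 0 in this fit, and none of those given here passed. Among axonal Kv genes, *Kcna2* ran from 503 to 690.2 CPM in saline mice (median 618) and from 527 to 661 CPM in morphine mice (median 627), and its log2 fold change was 0.02 (SE 0.09). *Kcna1* ran from 185 to 238 CPM in saline mice (median 202) and from 152 to 214 CPM in morphine mice (median 203), and its log2 fold change was -0.10 (SE 0.10). In both genes the treatments overlapped, and the lowest library of *Kcna1* was morphine female 3. Among the fast *Kcnc* genes, *Kcnc1* had 0.04 (SE 0.08) at medians of 166 CPM in saline and 171 CPM in morphine mice. *Kcnd2*, whose current delays the first spike, ran from 97.0 to 151 CPM in saline mice (median 115) and from 104 to 118 CPM in morphine mice (median 114), with -0.03 (SE 0.11). Its saline libraries spread more widely than its morphine libraries, with saline male 3 the highest of the 12 and saline males 1 and 2 the lowest. *Kcnd3* had 0.02 (SE 0.11) at medians of 58.0 CPM in saline and 58.2 CPM in morphine mice. *Kcnb2*, a delayed rectifier subunit, had 0.00 (SE 0.16) and spanned 19.8 to 33.2 CPM in saline mice alone.

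The M current gene *Kcnq3* ran from 108 to 156 CPM in saline mice (median 138) and from 113 to 164 CPM in morphine mice (median 149.8), with 0.08 (SE 0.12). Its ranges overlapped between treatments. Among the leak channels, *Kcnk9* ran from 345 to 509 CPM in saline mice (median 436) and from 399 to 481 CPM in morphine mice (median 430.0), with 0.05 (SE 0.11), and *Kcnk10* had 0.10 (SE 0.11) at medians of 20.3 CPM in saline and 21.2 CPM in morphine mice. The SK gene *Kcnn2*, which shapes the pause after a spike, ran from 29.996 to 49.0 CPM in saline mice (median 41.5) and from 32.1 to 41.2 CPM in morphine mice (median 37.3), with -0.13 (SE 0.12), and *Kcnn1* ran from 10.9 to 22.6 CPM in saline mice (median 13.5) and from 12.2 to 16.8 CPM in morphine mice (median 14.3), with -0.04 (SE 0.17). The sodium-activated *Kcnt1* ran from 51.2 to 110.1 CPM in saline mice (median 78.9) and from 70.0 to 99.8 CPM in morphine mice (median 87.7), with 0.15 (SE 0.14), and *Kcnt2* had -0.02 (SE 0.16) at medians of 10.5 CPM in saline and 10.8 CPM in morphine mice. *Kcnh1* was the steadiest of the 43 genes, at 23.3 to 27.4 CPM in saline and 23.5 to 26.5 CPM in morphine mice, with 0.00 (SE 0.07). At this number of mice a change within the SE of these genes was not detectable, and changes well beyond the SE could also be missed. In the same fit *Kcnk13*, at -0.28 with an SE of 0.13, did not pass, with an unadjusted p of 0.0506 in edgeR's quasi-likelihood test.

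In females alone, 0 of 43 pore genes passed, where 1.81% of the 18109 genes tested did, and none reached 0.05 before adjustment in the quasi-likelihood test, in exactTest, or in DESeq2. Without saline female 4 there were 2 calls, both higher, among them *Kcnh2*, where 7.95% of all genes were called. Without saline female 6 *Kcnk13* was called lower, where 1.27% of all genes were called, and with offsets for GC content *Kcna5* and *Kcnk13* were called lower, where 1.70% of all genes were called. The median log2 fold change of the pore genes was -0.04, against -0.01 over all genes, with 13 genes above 0 and 30 below. *Kcna5* had the smallest p (-0.40, SE 0.20), followed by *Kcnk13* (-0.21, SE 0.11), *Kcnh2* (0.25, SE 0.16), *Kcnc2* (-0.14, SE 0.09), and *Kcnn1* (0.21, SE 0.14). In 3 genes, 6.98% of the 43, the 3 saline and the 3 morphine females did not overlap, against 5.65% of all genes, and all 3 were lower in morphine females. Besides *Kcna5* these were *Kcnc2*, at 77.8, 81.1, and 89.8 CPM in saline and 73.9, 76.1, and 76.6 CPM in morphine females, and *Kcnk4*, at 4.52, 3.37, and 3.45 against 3.26, 3.17, and 3.27 CPM. The smallest value open to an exact permutation test of 3 mice against 3 is p = 0.1, which is what these 3 genes gave.

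**Figure D2:**
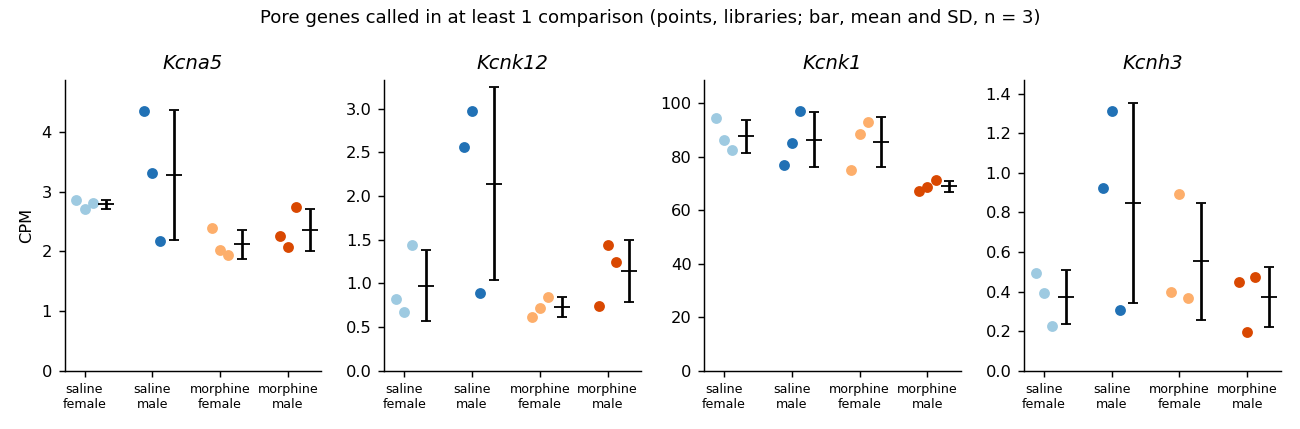
Level in CPM of *Kcna5*, *Kcnk12*, *Kcnk1*, and *Kcnh3*, the pore genes that passed the thresholds in at least 1 comparison, with 1 point per library and the mean and SD of each group (n = 3) beside it. The saline males are the widest group in each of the 4, spread for *Kcnk12* from 0.89 to 2.98 CPM.

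In males alone, 1 of 43 pore genes passed, where 2.99% of the 18166 genes tested did. It was *Kcnk1*, the leak channel with the highest mean level per length, at 76.8, 85.2, and 97.1 CPM in saline males and 67.1, 68.7, and 71.2 CPM in morphine males, so the groups did not overlap. The morphine females, at 75.0, 88.6, and 92.8 CPM, overlapped the saline females, at 94.4, 86.1, and 82.4 CPM. The log2 fold change in males was -0.33 (SE 0.14), with an unadjusted p of 0.0466 and an adjusted p of 1.00 in edgeR's quasi-likelihood test, against -0.04 (SE 0.10) in females, and the difference between the sexes was -0.27 (SE 0.17), which did not pass. *Kcnk1* passed in 1 of the 6 fits without 1 male (that without saline male 1), was at -0.20 without saline male 3, -0.37 without the library labelled morphine male 6, and -0.24 without both, with no call in any of the 3, and did not pass with exactTest, DESeq2, or scaling by total counts (-0.21). The opposite strand of 8.01% of its exon bases carries an antisense gene.

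Other tissue markers moved in the same male comparison. The sum of the 10 neuronal markers was 8823 to 10395 CPM in saline and 8451 to 8499 CPM in morphine males, and that of the 8 astrocyte markers 7171 to 7473 CPM against 6149 to 6706 CPM, with 0 genes of either list called. Of 5 cerebellar granule cell markers 3 (*Gabra6*, *Fat2*, and *Cbln3*) were called higher in morphine males (sum 58.3 to 68.5 CPM in saline, 70.2 to 115.6 CPM in morphine), and 3 of 4 choroid plexus markers were called higher (260.5 to 519 CPM in saline, 411 to 827 CPM in morphine). The oligodendrocyte sum was 38637 to 60539 CPM in saline and 33737 to 42721 CPM in morphine males, with 1 of 8 genes called lower. Without saline male 3, the calls in these lists were 3 neuronal, 3 astrocyte, and 4 oligodendrocyte genes lower and 3 granule cell and 3 choroid plexus genes higher. In that fit 3 of 4 oligodendrocyte precursor, 3 of 8 microglial, and 1 of 5 endothelial markers were called lower too. So were 1 of 4 smooth muscle and pericyte, 2 of 3 skeletal muscle, and 2 of 8 pons and medulla markers, where 28.6% of all genes were called. Without the library labelled morphine male 6, 1 oligodendrocyte gene was called lower and 4 granule cell and 4 choroid plexus genes were called higher. The part of these cell types in the pore gene levels was not tested.

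After *Kcnk1* the smallest p values in males belonged to *Kcnh3* (-1.19, SE 0.57), *Kcnk12* (-0.92, SE 0.47), *Kcnk10* (0.27, SE 0.16), and *Kcna5* (-0.48, SE 0.29), none of which passed. *Kcnk1*, *Kcna6*, *Kcnk2*, and *Kcnk6*, 9.30% of the 43, had groups that did not overlap, against 9.09% of all genes, and *Kcna6* was the only 1 of the 4 that was higher in morphine males, at 104, 103, and 108 CPM against 90.5, 96.2, and 102 CPM. Without saline male 3 the groups of 25 pore genes did not overlap, beside 48.5% of all genes, without the library labelled morphine male 6 those of 5 did not, beside 15.8%, and without both those of 33 did not, beside 69.7%, all over the 43 pore genes and 18166 genes of the fit of 6 males. The median over the pore genes was -0.05, beside -0.06 over all genes. Scaling by total counts moved the median of all genes to 0.06, and with it 26 rather than 17 of the 43 pore genes lay above 0, and the calls became 2 genes higher (among them *Kcnk10*) and 0 lower, where 4.44% of all genes were called, 737 higher and 70 lower. With DESeq2 and with exactTest 0 pore genes reached 0.05 before adjustment.

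**Figure D3:**
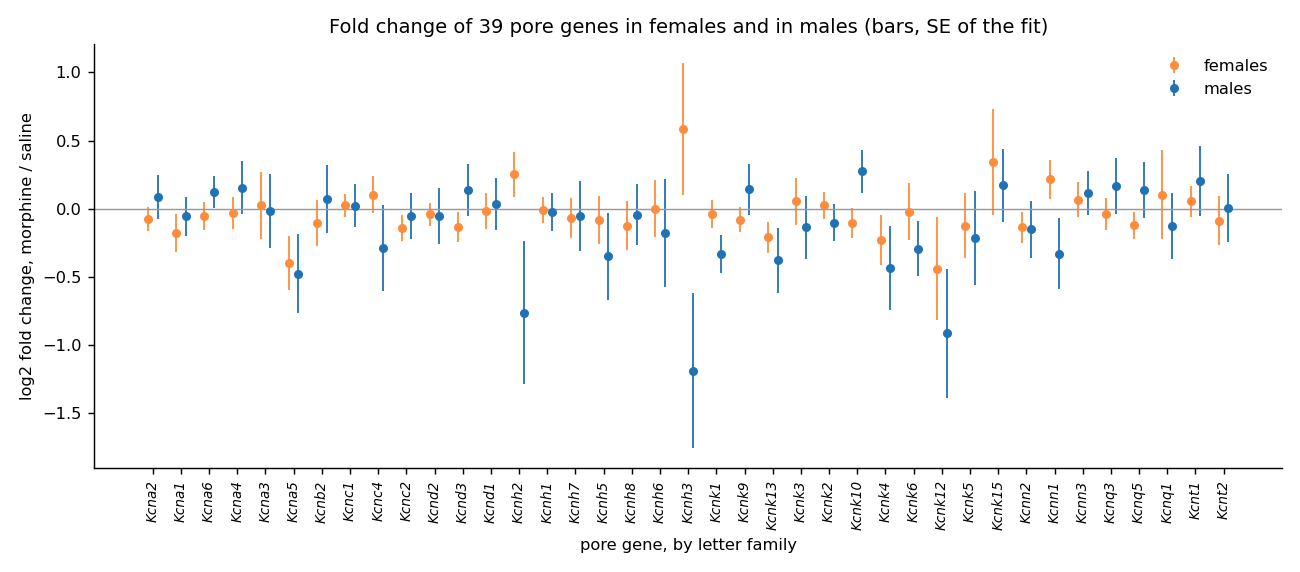
Log2 fold change (morphine over saline) of 39 of the 43 tested pore genes from the fits of the 3 against 3 females and the 3 against 3 males, with the SE of the fit as bars, ordered by letter family and level. The male bars are longer, with a median SE over the 43 genes of 0.22 against 0.13 in females, and *Kcnh2*, *Kcnh3*, and *Kcnk12* lie farthest below 0 in males.

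The test of the difference between the sexes, with the male change less the female change in a fit of the 12 mice, passed for 1 of 43 pore genes, where 2.94% of 19027 genes did. The median difference was 0.00 over the pore genes, with 23 above 0 and 20 below, and -0.03 over all genes, which scaling by total counts moved to 0.07. The gene that passed was *Kcnh3*, an ELK subunit of forebrain neurons with 6 to 60 counts per library here, at -1.76 (SE 0.79) with an unadjusted p of 0.0454 and an adjusted p of 0.985 in edgeR's quasi-likelihood test. Its level was 0.92, 1.31, and 0.31 CPM in saline males and 0.45, 0.20, and 0.47 CPM in morphine males, against 0.50, 0.40, and 0.23 CPM in saline females and 0.40, 0.89, and 0.37 CPM in morphine females. Thus saline males 1 and 2 and morphine female 2 were high, and the 9 other libraries lay between 0.20 and 0.50 CPM. Leaving out 1 mouse at a time gave -2.16 without saline male 3 to -1.22 without morphine female 2. The call was kept in 5 of these 12 fits, those without saline male 3, saline female 4, morphine female 1, morphine female 3, or the library labelled morphine male 6, and was lost with offsets for GC content (-1.16). *Kcnk10* (0.40, SE 0.19), *Kcnn1* (-0.53, SE 0.31), *Kcnh2* (-0.9998, SE 0.59), and *Kcnk1* followed and did not pass, and with scaling by total counts *Kcnk10* was called higher and *Kcnh3* was not called.

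The pore genes differed widely in their spread between libraries, which moved with the base composition of the transcript. The ratio of the highest to the lowest library was 1.18 in *Kcnh1* and 6.67 in *Kcnh3*, with a median of 1.63, and 16 of 43 genes exceeded 2. In 40 of 43 genes a saline male was the highest or the lowest library of the 12. Neither count was made over all genes, so neither can be read as particular to pore genes. Among the 14 genes richest in G and C, with 55.8% to 69.4% in the longest transcript, the median ratio was 2.27, while it was 1.53 among the 15 poorest, with 36.6% to 49.6%. The GC-rich genes also included genes with few counts, among them *Kcnh3* with 6 to 60 and *Kcnk12* with 20 to 136 per library. Few counts add counting noise to such a ratio, and its part was not tested. *Kcnh2*, with 61.3% G and C and 599 to 4276 counts per library, was at 77.3, 93.6, and 18.4 CPM in the saline males, 35.6, 27.7, and 21.9 CPM in the saline females, 36.1, 29.2, and 36.2 CPM in the morphine females, and 33.8, 32.1, and 45.3 CPM in the morphine males. Saline males 1 and 2 lay above, and saline male 3 below, every other library.

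Some genes poor in G and C took the opposite order. *Kcnh7*, the ERG relative of *Kcnh2* with 39.6% G and C, was at 39.2, 32.2, and 54.4 CPM in the saline males, and saline male 3 was the highest of the 12 libraries. *Kcnt2*, with 36.6%, was at 9.15, 8.36, and 13.5 CPM, again highest in saline male 3, while its relative *Kcnt1*, with 54.8%, was lowest there, at 82.4, 110.1, and 51.2 CPM. Within a library, the ratio of *Kcnh2* to *Kcnh7* was 1.97 and 2.91 in saline males 1 and 2 and 0.34 in saline male 3, and lay between 0.44 and 1.47 in the other 9 libraries. The ratio of *Kcnt1* to *Kcnt2* was 9.01, 13.2, and 3.78 in the saline males and 5.95 to 11.5 in the other 9. These pairs, printed above, were chosen after their values had been seen.

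**Figure D4:**
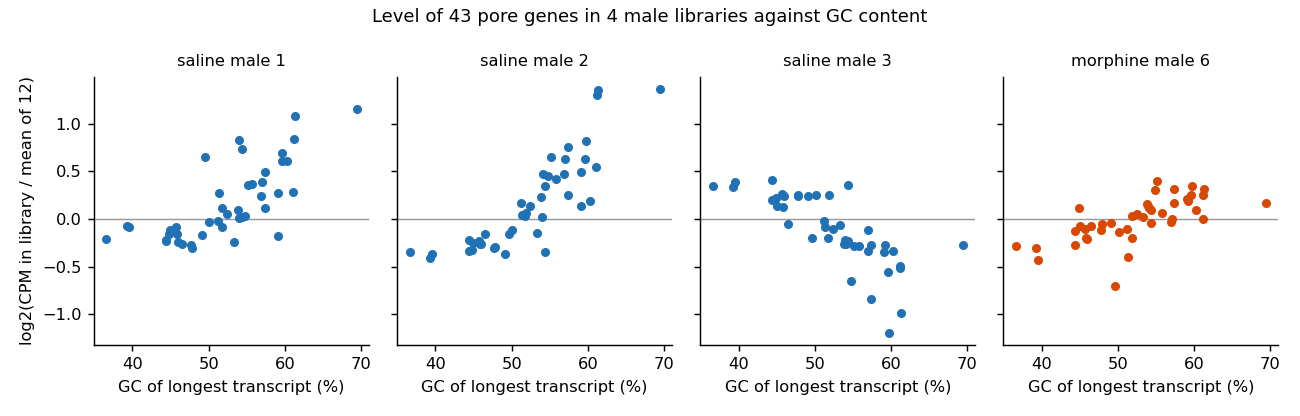
Level of the 43 tested pore genes in 4 male libraries, as the log2 ratio to the mean of the 12 libraries, against the percentage of G and C in the longest transcript. Points rise with GC content in saline males 1 and 2 and in the library labelled morphine male 6, and fall in saline male 3, where the 14 GC-rich genes have a median of -0.34.

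Over the 43 genes, Pearson's r of the log2 ratio of a library to the mean of all libraries with GC content was 0.73 in saline male 1, 0.85 in saline male 2, -0.76 in saline male 3, and 0.68 in the library labelled morphine male 6. In the other 8 libraries it lay between -0.61 and 0.09. These r values are descriptions across genes, which share a library and its depth and are not independent replicates. In the 4 male libraries named they were not particular to pore genes, since over all 18608 genes tested r was 0.59, 0.69, -0.69, and 0.50 there. In the other 8 libraries r over all genes lay between -0.52 (saline female 6) and 0.10. In morphine female 1 it was -0.12, against -0.61 over the pore genes, and in saline female 5 -0.33, against -0.60. The median of the GC-rich pore genes minus that of the GC-poor ones was 0.61, 0.88, and -0.59 on the log2 scale in the saline males, 0.30 in the library labelled morphine male 6, and -0.47 (saline female 6) to 0.10 in the other 8 libraries.

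The male comparison moved with this property. The male log2 fold changes of the 43 genes had an r of -0.55 with GC content, with medians of -0.20 in the GC-rich and 0.08 in the GC-poor genes. Without saline male 3, 17 of 43 pore genes passed, where 28.6% of all genes did, and r was -0.75. Of these, 10 were lower, 8 of them GC-rich, led by *Kcnh3* (-1.54, SE 0.41), *Kcnk12* (-1.25, SE 0.29), and *Kcnh2* (-1.17, SE 0.17), and 7 were higher, all GC-poor, led by *Kcnk9* (0.39, SE 0.09), *Kcnq5* (0.38, SE 0.13), and *Kcnq3* (0.38, SE 0.15). The adjusted p of *Kcnh2* was then 0.0108 in edgeR's quasi-likelihood test, against 1.00 with the 6 males, and 5 pore genes had an adjusted p under 0.05. Without both libraries that stood apart 25 of 43 passed, where 41.0% of all genes did, and in the treatment by sex fit 10 of 43 passed without saline male 3, where 24.1% did, and 15 of 43 without both, where 30.7% did.

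With loess offsets for the GC content of each library, chosen after the pattern was seen, r was -0.09 in the 6 males and 1 pore gene passed, *Kcnt1* (0.33), where 7.28% of all genes did. The offsets take out the trend of each library with GC content, so an r near 0 follows from their use. With these offsets and without saline male 3, 13 of 43 passed, where 19.6% of all genes did, and r was 0.06. Then 12 were higher and 1 lower, among the higher genes *Kcnc1* (0.44) and *Kcna6* (0.39), while *Kcnh2* was at -0.37. In the treatment by sex fit with the same offsets and without saline male 3, 10 of 43 passed, where 15.6% of all genes did. Of the male calls without saline male 3, only *Kcnk9*, *Kcnq5*, and *Kcnd3* (higher) and *Kcnh2* (lower) were made both with and without the offsets. The other genes called without the offsets, among them *Kcnh3*, *Kcnk12*, and *Kcnq3*, were not called with them. The other genes called with the offsets were not called without them. What set these libraries apart in GC content was not tested.

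**Figure D5:**
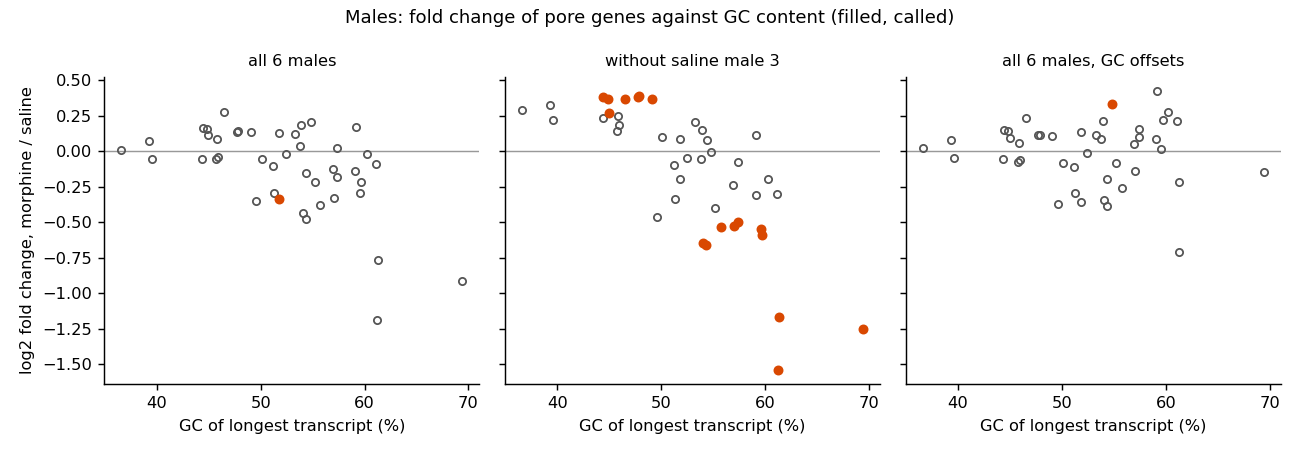
Log2 fold change (morphine over saline) of the 43 tested pore genes in males against the percentage of G and C in the longest transcript, with all 6 males, without saline male 3, and with all 6 males and GC offsets. Filled points passed the thresholds, 1 with all males, 17 without saline male 3, and 1 with offsets.

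The partners of these pores were measured in the same libraries. Of 43 genes for silent Kv subunits, BK and related pores, auxiliary subunits, and proteins that anchor Kv channels on axons and synapses, 38 were tested, and 0 passed in any of the 4 fits. Before adjustment none reached 0.05 in the quasi-likelihood test, in DESeq2, or, in the 3 fits where it was run, in exactTest. The sum of the 9 anchors, among them *Cntnap2*, which holds *Kcna* channels beside the node of Ranvier, was 2515 to 2642 CPM in saline and 2452 to 2595 CPM in morphine mice. In the sex-combined fit the smallest p values of the auxiliary subunits were those of *Kcnmb1* (-0.26, SE 0.18) and *Kcnab1* (-0.11, SE 0.08), of the silent subunits those of *Kcng1* (-0.18, SE 0.16) and *Kcns3* (0.07, SE 0.08), and of the anchors those of *Lgi1* (-0.10, SE 0.10) and *Epb41l3* (-0.03, SE 0.06). *Kcnma1*, the BK pore, had 0.04 (SE 0.12) at 106 to 168 CPM over the libraries. Without saline male 3, 10 of the 38 (26.3%) passed in males, where 28.6% of all genes did, among them the axonal subunit *Kcnab2*, which ranged from 154 to 501 CPM.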

How the data were processed

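The members and gene lists were chosen with earlier results of these data known. RNA of 12 brainstems was sequenced from poly-A libraries as single-end reads of 100 bases. Raw counts of exon reads per gene were deposited by the authors, made with Trimmomatic for trimming, STAR for alignment to the mm10 genome, and featureCounts. From these counts, CPM were computed with TMM scaling, and 4 fits were made with edgeR 4.0.16 (quasi-likelihood, filterByExpr) in R 4.3.3, namely both sexes with sex as covariate, females, males, and treatment by sex, with Benjamini-Hochberg adjustment over all genes tested. A gene was called when p was below 0.05 before adjustment and its log2 fold change was beyond 0.26 in either direction. Alternatives were DESeq2 1.42.0, exactTest, other scaling and filters, no covariate, a replicate block, and fits without 1 mouse or without both libraries that stood apart. Loess offsets for GC content (span 0.5) were added after the data were seen. Genes named with values were those called in any fit, the 5 smallest p values of each fit, and the 2 highest genes per kb of each letter family, and other members were given by their level per kb. Values of other members in single libraries, alternatives, or groups that do not overlap were chosen after they were seen. Partner genes were named as the 2 smallest p values of a list, and *Cntnap2* and *Kcnab2* were chosen after their values were seen. Totals of 27850565 to 48097947 counts per library set the counting precision, and replicates are separate mice. Sequences, exon lengths, and GC content came from GENCODE M21 (GRCm38). Of the tested members, 4 enter the counts but are not reported here by name. The code was tested on simulated data.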

Additional observations from a re-analysis of the deposited data

Results flagged for a closer look

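In 1 of the 44 groups of 6 libraries examined, over 22 named pore genes, a single library lay far from the other 5, and chance alone flags about 1 in 20 groups. In *Kcnd2* the library labelled morphine male 6 was at 104.1 CPM, below the other morphine mice at 113 to 118 CPM. This library also stood apart in its sex-linked genes. The treatment effect on *Kcnh3* differed between the sexes by -1.756 on the log2 scale, with an adjusted p of 0.985 in edgeR's quasi-likelihood test, and the group means were 0.85 CPM in saline and 0.37 CPM in morphine males, and 0.37 CPM in saline and 0.55 CPM in morphine females.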

How the results depend on the processing

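None of the named calls reversed its direction under any alternative run. *Kcna5* in both sexes kept its call in 21 of 23 alternatives, *Kcnk12* in 9 of 23, *Kcnk1* in males in 3 of 16, and *Kcnh3* in the treatment by sex fit in 9 of 19. The number of pore genes called in both sexes was 2, and became 4 without both libraries that stood apart, 1 with exactTest, 1 with total counts as the scale, and 0 (without saline male 1 or morphine male 5) to 4 (without saline male 3) when 1 mouse was left out. Over all genes, 244 of 18608 were called with exactTest and 249 of 18608 with total counts. Likewise 255 of 18913 were called without saline male 1, and 193 of 18909 without morphine male 5. In females the number of pore genes called was 0, and became 2 with GC offsets (*Kcna5* and *Kcnk13*, both lower) and 0 to 2 (without saline female 4) when 1 mouse was left out. In males it was 1, and became 0 with DESeq2, with its size factors, or with exactTest, 2 with the contrast from all 12 mice or with total counts, 3 with no filter on low counts, 25 without both libraries that stood apart, 13 with GC offsets and without saline male 3, and 0 to 17 (without saline male 3) when 1 male was left out. Over all genes in males, 534 of 18166 were called with DESeq2, 541 with its size factors, and 542 with exactTest. With the contrast from all 12 mice 790 of 19027 were called, with total counts 807 of 18166, and with no filter 985 of 34805. In the treatment by sex fit the number of pore genes called was 1, and became 0 with a minimum of 10 counts in every library or with GC offsets, 2 with no filter, 15 without both libraries, 10 with GC offsets and without saline male 3, and 0 to 10 (without saline male 3) when 1 mouse was left out. Over all genes in that fit, 413 of 16064 were called with the minimum of 10 counts, 1138 of 19027 with GC offsets, and 1665 of 37483 with no filter. The median log2 fold change in males, -0.0522, became 0.0518 with GC offsets, 0.0816 with offsets and without saline male 3, and 0.0739 with total counts. In the treatment by sex fit the median of 0.0048 became 0.0715, 0.115, and 0.106 under the same settings and -0.142 without both libraries, and lay between -0.0964 (without saline male 3) and 0.0384 when 1 mouse was left out. The cause of these shifts was not tested. Replicate numbers run through both treatments, but same-numbered saline and morphine mice deviated together with correlations of only -0.343 to 0.176 over 19027 genes. Same-numbered saline and morphine mice were of opposite sex in every pair. No saline library correlated best with its own number, so a pairing by number was not seen. As these deviations carry the GC trend of each library, they cannot show whether same-numbered mice came from 1 litter. With the replicate block 1 pore gene (*Kcna5*) was called in both sexes, where 182 of 18608 genes were called. Low counts limit *Kcnh3*, *Kcnk12*, and *Kcna5*.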
